A study of Homo sapiens with 15 samples.

Results

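Cytarabine is an analogue of deoxycytidine. The 42 genes described here act in its uptake, activation and inactivation or, more widely, in the transport and metabolism of nucleosides and nucleotides. They were taken by name, as nucleoside transporters, kinases, nucleotidases, deaminases and nucleotide synthesis enzymes, by a rule that uses no measured value, and all 42 were found among the 58735 genes listed. RNA was sequenced from HEK293T, a human embryonic kidney cell line that served as the supporting cell in a screen for drug resistance that arises from cell-cell interactions. The cells whose survival under cytarabine was scored in that screen were U937 leukemia cells grown with HEK293T. The 5 groups were the control clone Non-target, with a guide that has no target, and 4 CRISPR knockout (CKO) clones, C9orf89-CKO, MAGI2-CKO, then MLPH-CKO and RHBDD2-CKO, each named for the gene knocked out. Where values of the 4 knockout clones follow each other, they stand in the order C9orf89, MAGI2, MLPH, RHBDD2, and library values in the order of replicates 1 to 3.

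All 5 lines carry a CRISPR vector, and the study's methods state that each was established by limiting dilution. Each group had 3 libraries from 3 wells, so the spread given here is that between wells of a clone, not between independent clones with the same guide. The labels name no drug exposure for these libraries. In bulk RNA, fewer cells with a transcript and less of it per cell cannot be told apart. All 4 comparisons share the same 3 Non-target libraries and are not independent of each other. A library held 15517856 to 19489918 fragments on genes, and the spread of a low gene includes counting error.

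In each clone whose target passed the filter on low values, the RNA of that target was lower than in Non-target. CARD19, the current symbol of C9orf89, was at 4.34, 4.27 and 4.34 FPKM (fragments per kilobase of exon, scaled to library size) in C9orf89-CKO and at 5.70, 7.71 and 6.27 in Non-target. RHBDD2 was at 11.2, 13.5 and 12.4 FPKM in RHBDD2-CKO and at 27.4, 38.1 and 34.9 in Non-target. On the log2 scale these differences were -0.58 (SE 0.10, adjusted p = 0.000977 in limma with Benjamini-Hochberg adjustment) and -1.42 (SE 0.14, adjusted p = 7.56e-06). MAGI2 had a mean of 0.0680 FPKM in MAGI2-CKO and 0.115 in Non-target, and MLPH was listed at 0 in all 6 libraries of MLPH-CKO and Non-target, so these labels could not be checked by the target. All 8 markers of HEK293T cells were tested, with VIM, an intermediate filament gene, the most abundant at 45.2 FPKM in Non-target. By clone, 2, 3, 6 and 0 of them were higher than in Non-target and 2, 3, 0 and 4 lower (with replicates 2 and 3 alone, 2, 3, 6 and 0 higher and 3, 3, 0 and 4 lower). Of all genes tested, 12.9%, 17.0%, 14.5% and 17.4% were higher by clone and 13.1%, 19.1%, 15.5% and 16.7% lower. With replicates 2 and 3 alone, 15.8%, 19.2%, 17.2% and 20.2% of all genes were higher and 17.7%, 22.2%, 21.0% and 22.9% lower. NEFM, a neurofilament gene that HEK293T cells often express, had a mean of 27.2 FPKM in Non-target but 0.0274 in MAGI2-CKO and 1.34 in RHBDD2-CKO (log2 fold changes -7.73 and -4.23). NEFL, another neurofilament gene, had 18.8 FPKM in Non-target, up to 34.8 in the first 3 clones, where it was higher (0.36, 0.40 and 0.89), and 0.984 in RHBDD2-CKO, where it was lower (-4.12). Of 6 marker genes of U937, the leukemia line of the study, 0 passed the filter, and their summed FPKM was 0.217 to 0.426 in the group means. Of 7 marker genes of the mesenchymal line UE7T-9, 2 passed it, the collagen genes COL1A1 and COL3A1. COL1A1 had means of 2.43 FPKM in Non-target and 4.12, 4.75, 4.48 and 3.28 in the clones, and was higher in the first 3 (log2 fold changes 0.74, 0.93 and 0.83, and 0.40 in RHBDD2-CKO, adjusted p = 0.0939). With replicates 2 and 3 alone it was the 1 marker of UE7T-9 tested and was higher in all 4 clones. COL3A1 had 1.29 FPKM in Non-target and 0.129, 0.352, 0.160 and 0.204 in the clones (-2.59, -1.60, -2.46 and -2.18), and since it passed the filter through the Non-target libraries alone, it had to be lower and its call is given as a description.

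Within each group the library numbered 1 stood apart from the others. A chi-square of the fragments came to 14.6 to 24.8 per gene where replicate 1 was in the pair, and to 2.40 to 6.54 where replicate 2 was set against 3. The total counts of genes called against Non-target and between clones, and those of the other gene lists, are therefore given also for replicates 2 and 3 alone.

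Cytarabine enters the cell mainly through the equilibrative nucleoside transporter that SLC29A1 encodes. DCK then adds the first phosphate, which is the limiting step of activation, and CMPK1 and nucleoside diphosphate kinases carry it on to the triphosphate that is built into DNA. CDA deaminates the nucleoside and DCTD the monophosphate, SAMHD1 cleaves the triphosphate, and 5′-nucleotidases reverse the phosphorylation. Ribonucleotide reductase, thymidylate synthase and the folate-dependent enzymes that feed it set the pool of natural deoxynucleotides.

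The study knocked out DCK in a further HEK293T line, made to resist gemcitabine, which is not among these libraries. Its 20-base guide is shown because DCK is the kinase that cytarabine depends on. It lies at chr4:70998161-70998180 on the + strand (GRCh38, GENCODE v29), in exon 2 of the DCK transcript ENST00000286648.9, within the coding sequence and 2 bases from the end of that exon. The base pairs next to it that Cas9 needs were not read, since they run into the intron.
DCK guide: aagtactcaagatgaatttg

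DCK RNA was lower in MLPH-CKO and did not pass the threshold in any other clone. DCK was at 13.3, 13.3 and 13.1 FPKM in Non-target, at 12.5, 13.3 and 12.9 in C9orf89-CKO, at 13.2, 12.5 and 11.3 in MAGI2-CKO, at 9.16, 9.65 and 9.96 in MLPH-CKO and at 15.9, 12.8 and 13.2 in RHBDD2-CKO. The 3 MLPH-CKO libraries lay below all 12 others. The mean of MLPH-CKO was 72.5% of that of Non-target (log2 fold change -0.46, SE 0.08, adjusted p = 0.000785 in limma), and it was also lower than in each of the other clones, with differences of 0.36 to 0.53 (adjusted p = 0.000180 to 0.00588). The call held under every alternative setting and with each library left out. The 100 genes nearest to DCK on chromosome 4 had a median log2 fold change of -0.43 in the same comparison, a value whose part in the result was not tested. In the other clones the log2 fold changes of DCK were -0.04, -0.10 and 0.07 (SE 0.08 each), with adjusted p-values of 0.783, 0.341 and 0.518.

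**Figure D1:**
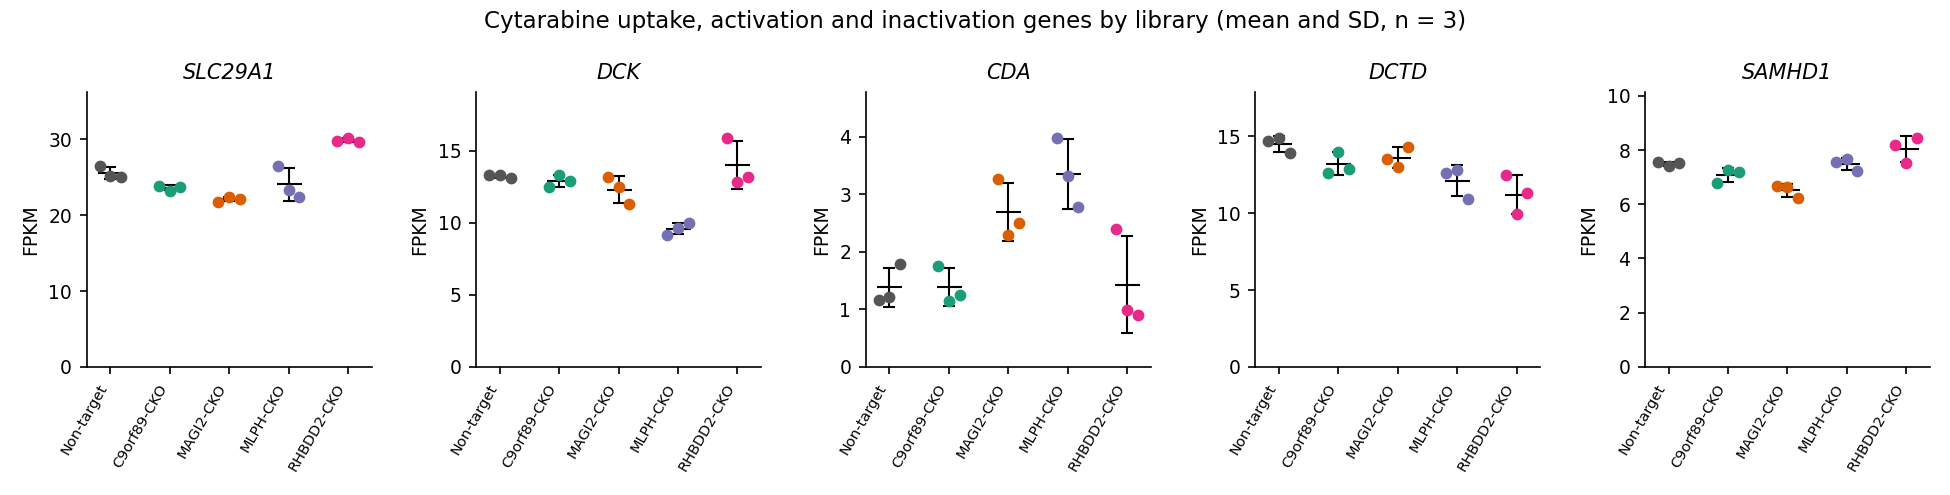
FPKM (linear axis from 0) of SLC29A1, DCK, CDA, DCTD and SAMHD1 in the 5 groups. Points are libraries (replicates 1 to 3 from left to right), the bar and whiskers are the mean and SD of 3 libraries, and DCK in MLPH-CKO (9.16 to 9.96) lies below all other libraries while CDA in MAGI2-CKO and MLPH-CKO lies above the 3 Non-target libraries.

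CDA, the cytidine deaminase, was higher in MAGI2-CKO and MLPH-CKO from a low level. CDA was at 1.16, 1.21 and 1.78 FPKM in Non-target, at 1.76, 1.15 and 1.25 in C9orf89-CKO, at 3.26, 2.30 and 2.50 in MAGI2-CKO, at 3.98, 3.31 and 2.78 in MLPH-CKO and at 2.40, 0.981 and 0.894 in RHBDD2-CKO. The libraries of MAGI2-CKO and MLPH-CKO lay above those of Non-target, whereas RHBDD2-CKO was split, with replicate 1 above Non-target and the others below it. CDA rose by 0.92 on the log2 scale (SE 0.31, adjusted p = 0.0334) in MAGI2-CKO and by 1.23 (SE 0.31, adjusted p = 0.00905) in MLPH-CKO, and its log2 fold change was 0.01 in C9orf89-CKO and -0.07 in RHBDD2-CKO (adjusted p = 0.994 and 0.889). These levels rested on 14 to 70 fragments per library. With replicates 2 and 3 alone CDA was also called in RHBDD2-CKO, as lower (-0.60, adjusted p = 0.0287). The call in MAGI2-CKO was lost when Non-target replicate 1 or 2 or MAGI2-CKO replicate 1 or 3 was left out, with adjusted p-values of up to 0.110, and without the filter on low values (0.0628). The 100 genes around CDA on chromosome 1 had medians of 0.43 to 0.50 in all 4 comparisons, including those in which CDA was not called.

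DCTD, which deaminates the monophosphate, was lower in MLPH-CKO and RHBDD2-CKO. Its levels were 14.7, 14.9 and 13.9 FPKM in Non-target, 12.6, 14.0 and 12.9 in C9orf89-CKO, 13.5, 13.0 and 14.3 in MAGI2-CKO, 12.6, 12.8 and 10.9 in MLPH-CKO and 12.5, 9.97 and 11.3 in RHBDD2-CKO. All libraries of MLPH-CKO and RHBDD2-CKO lay below Non-target, and those of the other clones overlapped it. DCTD had log2 fold changes of -0.26 (SE 0.08, adjusted p = 0.0344) in MLPH-CKO and -0.37 (SE 0.08, adjusted p = 0.00501) in RHBDD2-CKO. The call in MLPH-CKO was lost on leaving out any of the 3 Non-target libraries or MLPH-CKO replicate 3 (adjusted p up to 0.143). It was also lost without the filter on low values, with quantile normalization, with the contrasted groups alone and with replicates 2 and 3 alone (0.0534 to 0.0595), whereas that in RHBDD2-CKO was kept throughout. DCK and DCTD both lie on chromosome 4, and the neighbours of DCTD had medians of -0.24 in MLPH-CKO and 0.23 in RHBDD2-CKO.

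SAMHD1, the deoxynucleotide triphosphohydrolase, was lower in MAGI2-CKO by a small margin. SAMHD1 was at 7.57, 7.40 and 7.51 FPKM in Non-target, at 6.80, 7.28 and 7.18 in C9orf89-CKO, at 6.69, 6.63 and 6.22 in MAGI2-CKO, at 7.57, 7.68 and 7.24 in MLPH-CKO and at 8.18, 7.52 and 8.45 in RHBDD2-CKO. The libraries of C9orf89-CKO and MAGI2-CKO lay below Non-target, and those of MLPH-CKO and RHBDD2-CKO overlapped it. In MAGI2-CKO the log2 fold change was -0.20 (SE 0.06, adjusted p = 0.0156), and without MAGI2-CKO replicate 3 the adjusted p was 0.0657. The other 3 log2 fold changes were -0.08, 0.00 and 0.10 (adjusted p of at least 0.196).

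SLC29A1, the main uptake transporter, differed in opposite directions in MAGI2-CKO and RHBDD2-CKO. SLC29A1 was at 26.5, 25.2 and 25.1 FPKM in Non-target, at 23.8, 23.2 and 23.7 in C9orf89-CKO, at 21.8, 22.4 and 22.1 in MAGI2-CKO, at 26.5, 23.3 and 22.4 in MLPH-CKO and at 29.8, 30.2 and 29.6 in RHBDD2-CKO. The libraries of RHBDD2-CKO were the highest of all 15, and those of C9orf89-CKO and MAGI2-CKO lay below all of Non-target. In C9orf89-CKO and MLPH-CKO SLC29A1 was not called (log2 fold changes -0.12 and -0.09, adjusted p = 0.163 and 0.278 in limma). Against Non-target the log2 fold changes were -0.21 (SE 0.06, adjusted p = 0.0130) in MAGI2-CKO and 0.22 (SE 0.06, adjusted p = 0.00975) in RHBDD2-CKO. Quantile normalization removed the MAGI2-CKO call (adjusted p = 0.0608), and no left-out library did. SLC29A1 was called in MLPH-CKO as well with replicates 2 and 3 alone (-0.14, adjusted p = 0.0340).

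Read across these 5 genes, 0 passed the threshold in C9orf89-CKO, 3 did in MAGI2-CKO (CDA higher, SAMHD1 and SLC29A1 lower), 3 in MLPH-CKO (CDA higher, DCK and DCTD lower) and 2 in RHBDD2-CKO (SLC29A1 higher, DCTD lower), where 26.0%, 36.1%, 30.1% and 34.1% of all genes tested passed it. No gene of the 5 was called in the same direction in more than 2 clones.

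Over the whole set, 40 of the 42 genes passed the filter of at least 0.5 FPKM in at least 3 libraries, among 16175 genes tested. CMPK2, an interferon-inducible mitochondrial kinase, and NT5E, the cell-surface nucleotidase CD73, did not. Fragments of CMPK2 per library numbered 0 to 2 in Non-target and, by clone, 9 to 10, 1 to 6, 4 to 12 and 2 to 5. NT5E had 20 to 40 fragments in Non-target and 2 to 3 in MLPH-CKO, with 10 to 26 in the other clones, and its means were 0.395 FPKM in Non-target and 0.0279 in MLPH-CKO. The other 40 spanned from ABCG2 at 0.892 FPKM over all libraries to DCTPP1 at 93.0.

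In C9orf89-CKO 8 of the 40 genes passed an adjusted p of 0.05 (20%), 2 higher and 6 lower, where 26.0% of all genes tested did. In MAGI2-CKO 18 passed (45.0%, against 36.1% of all genes), 8 higher and 10 lower. In MLPH-CKO 15 passed (37.5%, against 30.1%), 5 higher and 10 lower, and in RHBDD2-CKO 18 passed (45.0%, against 34.1%), 6 higher and 12 lower. Among all genes tested, 12.9%, 17.0%, 14.5% and 17.4% were higher in the respective clone and 13.1%, 19.1%, 15.5% and 16.7% lower. Of the 40 genes, 5%, 20%, 12.5% and 15% were higher and 15%, 25%, 25% and 30% lower. Their median log2 fold change was -0.10, -0.04, -0.08 and -0.09 in the same order, where that of all genes was within 0.01 of 0. With replicates 2 and 3 alone, 11, 20, 21 and 23 of the 40 passed (27.5%, 50%, 52.5% and 57.5%, against 33.5%, 41.5%, 38.1% and 43.0% of all genes), 3, 9, 6 and 7 higher and 8, 11, 15 and 16 lower. The calls lost then were those of TK2 in MAGI2-CKO, DCTD and DUT in MLPH-CKO and PNP in RHBDD2-CKO. All genes tested, here and beside the other lists, were not matched for level. Where a mean of at least 1 FPKM was required, 39 of the set were tested, and 23.1%, 43.6%, 38.5% and 48.7% passed by clone. Of all genes tested in that setting, 29.4%, 39.4%, 33.8% and 39.0% passed.

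Libraries of the clone and of Non-target did not overlap for 19, 20, 18 and 25 of the 40 genes by clone, where 39.7%, 46.8%, 41.1% and 44.2% of all genes tested did not. In at least 1 comparison 30 of the 40 passed (75.0%, against 61.5% of all genes). The 10 that passed in none were ABCG2, CAD, DHODH, DTYMK, MTHFD2, NME1, NME2, RRM2B, SLC29A2 and TK1, of which CAD, DHODH, MTHFD2, NME1, SLC29A2 and TK1 passed in some clone with replicates 2 and 3 alone.

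**Figure D2:**
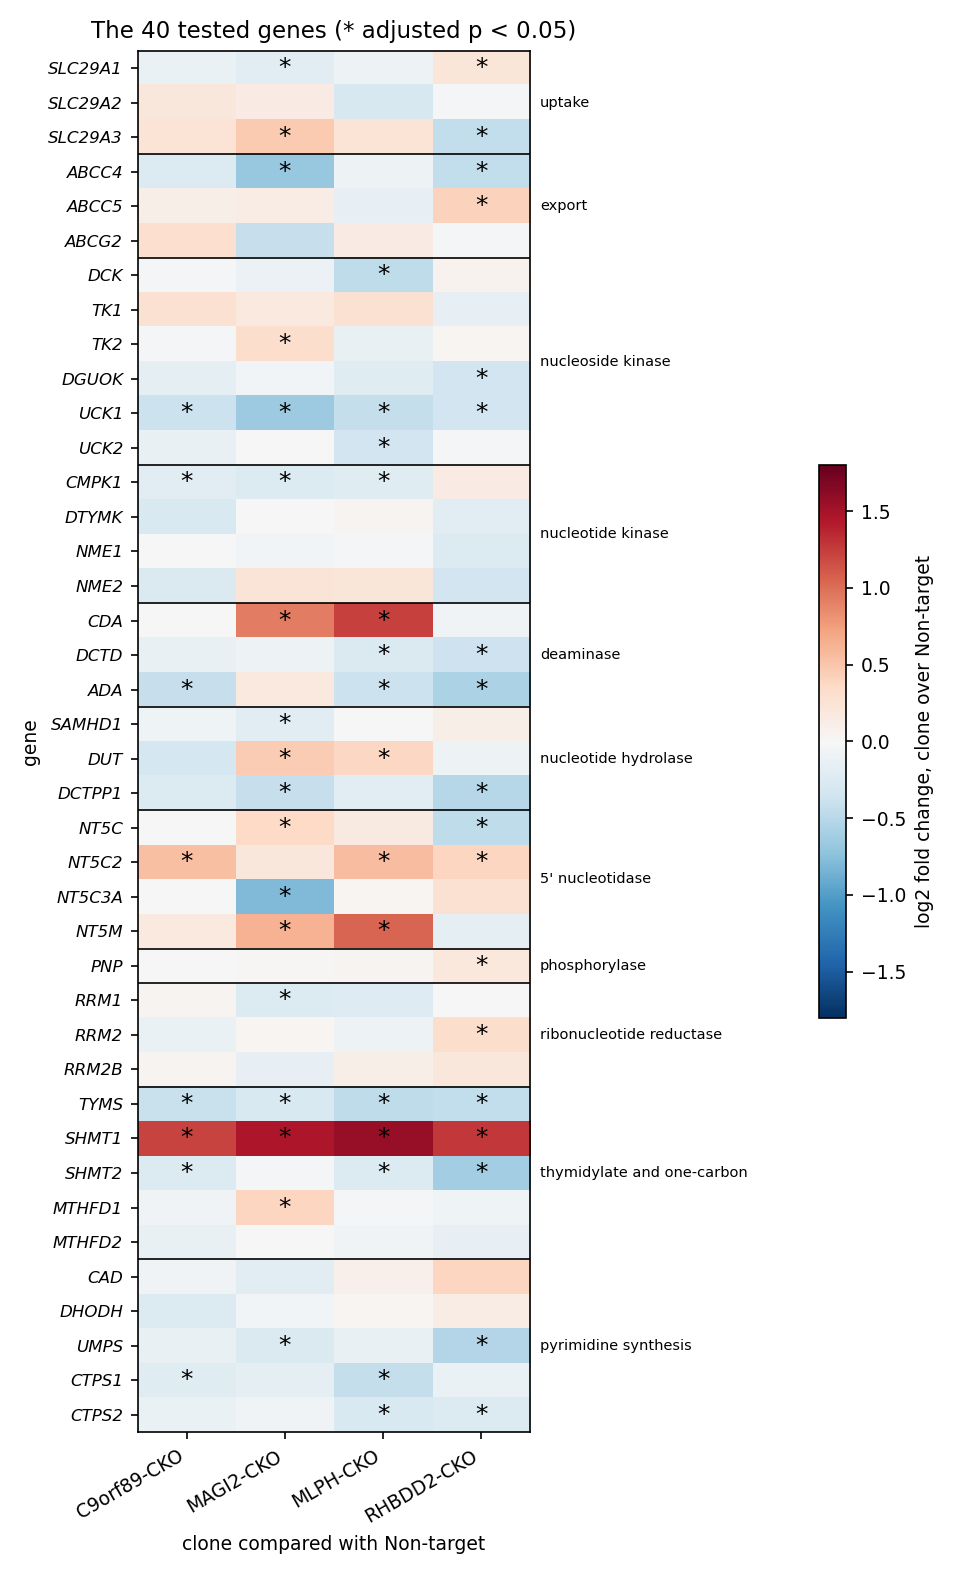
Log2 fold change of the 40 tested genes (rows, grouped by role) in the 4 clones against Non-target (columns), on a colour scale from blue (lower in the clone) to red (higher), with an asterisk where the adjusted p in limma was under 0.05. SHMT1 is red with an asterisk in all 4 columns, TYMS and UCK1 are blue with an asterisk in all 4, and most other genes change from column to column.

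SHMT1, the cytosolic serine hydroxymethyltransferase that loads folate with the carbon for thymidylate, had the largest log2 fold change of the 40 tested genes in each clone. SHMT1 was at 9.11, 10.4 and 9.51 FPKM in Non-target, at 21.8, 22.8 and 23.4 in C9orf89-CKO, at 25.9, 27.0 and 27.4 in MAGI2-CKO, at 28.4, 29.9 and 28.3 in MLPH-CKO and at 22.3, 24.3 and 23.7 in RHBDD2-CKO. The lowest of the 12 clone libraries stood at 21.8 FPKM and the highest of Non-target at 10.4. The Non-target mean was 9.69 ± 0.682 FPKM (SD, n = 3), and the clone means were 22.7 ± 0.801, 26.8 ± 0.778, 28.9 ± 0.863 and 23.5 ± 1.03. SHMT1 rose in all 4, with log2 fold changes of 1.22, 1.46, 1.57 and 1.27 (SE 0.06 each), with adjusted p-values of 2.55e-08, 4.57e-09, 2.33e-09 and 1.12e-08 in limma. MLPH-CKO exceeded C9orf89-CKO by 0.35 (adjusted p = 0.00177) and RHBDD2-CKO by 0.30 (adjusted p = 0.00150). MAGI2-CKO was called higher than C9orf89-CKO and RHBDD2-CKO as well. The share of all genes that was higher in all 4 comparisons was 3.39%, and SHMT1 was the only gene of the 40 to be so. The calls held under every alternative setting and with each library left out.

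The region around SHMT1 on chromosome 17 was higher as well. The 100 genes nearest to it were higher by a median of 0.96, 1.01, 0.94 and 0.54 on the log2 scale. The value of SHMT1 was above these medians in each comparison. The copy number of the region was not measured here, and its part in the level of SHMT1 was not tested.

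NT5M, the mitochondrial deoxyribonucleotidase, lies in the same region and shares those neighbours, but followed a different pattern. NT5M was at 3.08, 5.53 and 4.79 FPKM in Non-target, at 5.25, 4.25 and 5.32 in C9orf89-CKO, at 5.41, 7.02 and 8.13 in MAGI2-CKO, at 7.82, 9.88 and 9.68 in MLPH-CKO and at 3.48, 4.31 and 3.86 in RHBDD2-CKO. Only the MLPH-CKO libraries lay wholly above Non-target. NT5M had log2 fold changes of 0.63 (SE 0.20, adjusted p = 0.0262) in MAGI2-CKO and 1.05 (SE 0.20, adjusted p = 0.00166) in MLPH-CKO, against 0.17 for C9orf89-CKO and -0.16 for RHBDD2-CKO, with adjusted p-values of 0.569 and 0.566. The MAGI2-CKO call was lost without Non-target replicate 1 or MAGI2-CKO replicate 2 or 3 (adjusted p up to 0.107) and with the contrasted groups alone (0.0857).

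TYMS, thymidylate synthase, was lower in all 4 clones. TYMS was at 26.3, 32.5 and 27.6 FPKM in Non-target, at 23.0, 19.8 and 22.5 in C9orf89-CKO, at 22.8, 23.5 and 24.3 in MAGI2-CKO, at 23.4, 20.5 and 18.7 in MLPH-CKO and at 21.2, 20.8 and 20.9 in RHBDD2-CKO. All 12 clone libraries lay below the lowest of Non-target. Its log2 fold changes were -0.40, -0.28, -0.46 and -0.45 (SE 0.09 each), with adjusted p-values of 0.00632, 0.0283, 0.00223 and 0.00237 in limma. The call in MAGI2-CKO was lost with quantile normalization (adjusted p = 0.0620) and without Non-target replicate 2 or MAGI2-CKO replicate 1 or 2 (adjusted p up to 0.126). Of the exon bases of TYMS 39.1% are shared with ENOSF1 on the opposite strand, and the strand setting of the counting is not given in the sources used here. The F-test among the clones did not pass the threshold (adjusted p = 0.325), and the 100 nearest genes had medians of -0.17 to 0.05. Per length, TYMS stood at 2.97 ± 0.128 times the FPKM of SHMT1 in Non-target (SD, n = 3) and at 0.725 to 0.960 times in the means of the clones.

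SHMT2, the mitochondrial counterpart of SHMT1, was lower in 3 clones. It was at 84.1, 92.1 and 83.8 FPKM in Non-target, at 75.0, 71.6 and 73.0 in C9orf89-CKO, at 84.4, 82.3 and 86.4 in MAGI2-CKO, at 82.1, 70.2 and 67.0 in MLPH-CKO and at 60.5, 54.9 and 53.7 in RHBDD2-CKO. RHBDD2-CKO held the 3 lowest libraries, and MAGI2-CKO overlapped Non-target. The log2 fold change in RHBDD2-CKO was -0.62 (SE 0.08, adjusted p = 5.33e-05), and RHBDD2-CKO was also lower than each other clone by 0.37 to 0.58 (adjusted p = 5.18e-05 to 0.00227). The calls in C9orf89-CKO (-0.24, adjusted p = 0.0328) and MLPH-CKO (-0.25, adjusted p = 0.0254) depended on single libraries, and were lost in the former without Non-target replicate 2 or 3 or any library of the clone (adjusted p up to 0.126) and in the latter without Non-target replicate 2 or MLPH-CKO replicate 2 or 3 (up to 0.109). The former was also lost without the filter on low values (0.0580) and the latter with the contrasted groups alone (0.110). Of the 2 other folate enzymes, MTHFD1, the cytosolic one, was higher in MAGI2-CKO (47.6 ± 1.24 FPKM against 36.3 ± 0.837, SD, n = 3, log2 fold change 0.39, adjusted p = 0.000130), where its neighbours on chromosome 14 had a median of 0.32. MTHFD2, the mitochondrial one, had log2 fold changes of -0.15 to -0.01 and was not called.

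**Figure D3:**
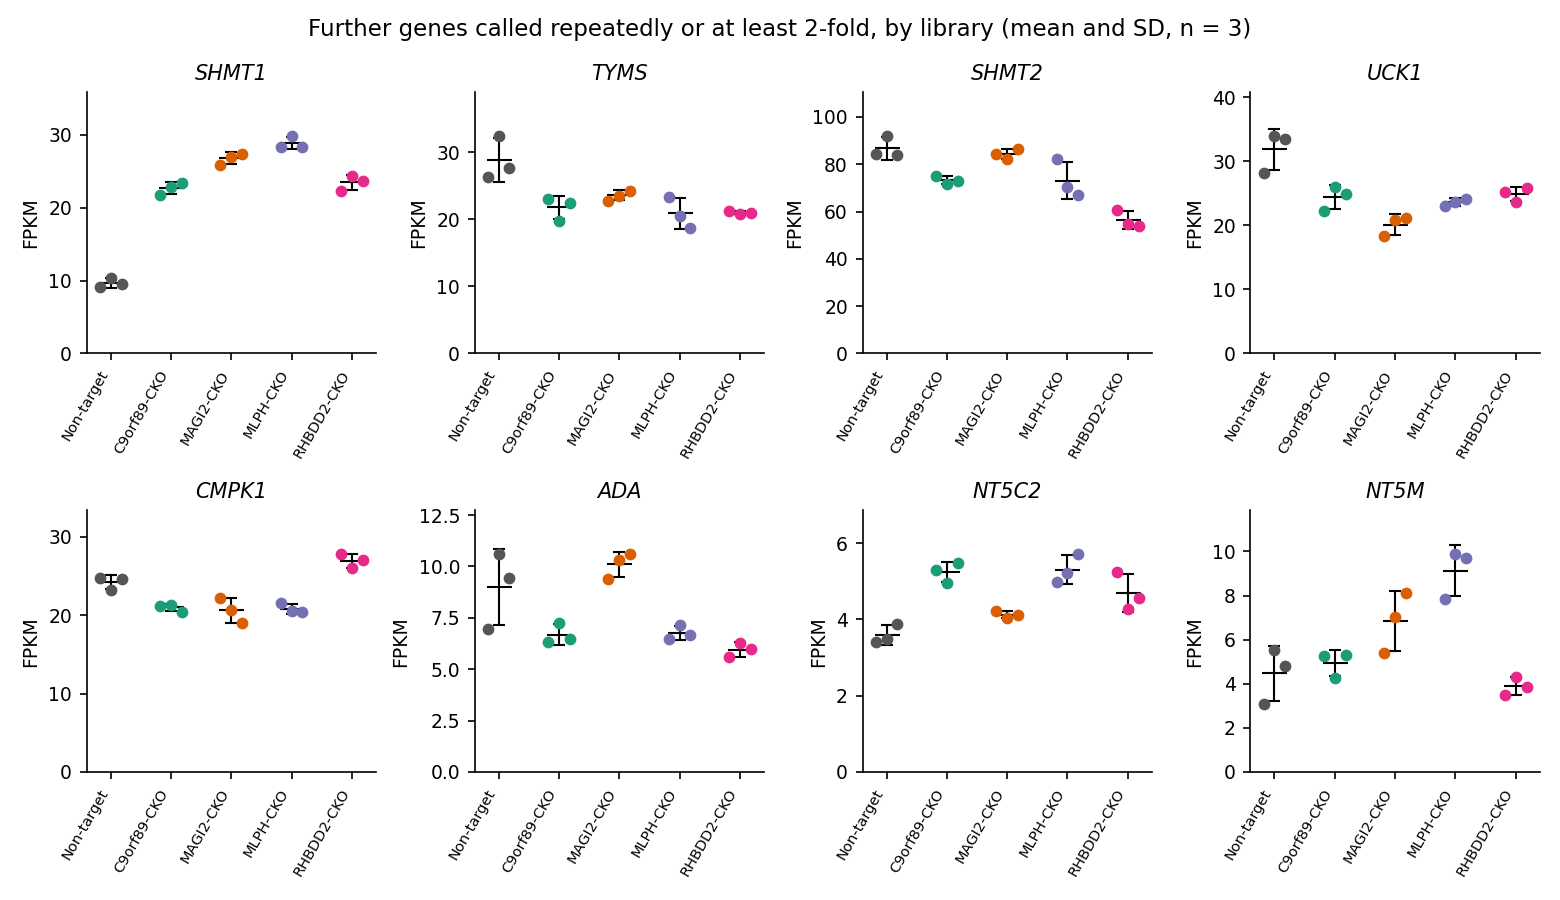
FPKM (linear axis from 0) by library of SHMT1, TYMS, SHMT2, UCK1, CMPK1, ADA, NT5C2 and NT5M in the 5 groups. Points are libraries and the bar and whiskers are the mean and SD of 3 libraries. The clone libraries of SHMT1 lie between 21.8 and 29.9 and those of Non-target between 9.11 and 10.4, while UCK1 and TYMS are lower than Non-target in all 12 clone libraries.

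Among the nucleoside kinases, UCK1, which phosphorylates uridine and cytidine, was lower in all 4 clones. UCK1 was at 28.2, 34.0 and 33.4 FPKM in Non-target, at 22.3, 26.0 and 24.9 in C9orf89-CKO, at 18.3, 20.8 and 21.2 in MAGI2-CKO, at 23.0, 23.7 and 24.1 in MLPH-CKO and at 25.2, 23.7 and 25.8 in RHBDD2-CKO. No clone library reached the lowest of Non-target, and MAGI2-CKO held the 3 lowest. UCK1 fell in all 4, with log2 fold changes of -0.38, -0.66, -0.43 and -0.35 (SE 0.08 each), with adjusted p-values of 0.00507, 5.81e-05, 0.00210 and 0.00622 in limma, and every call held under every alternative setting and with each library left out. MAGI2-CKO was lower than C9orf89-CKO by 0.28 (adjusted p = 0.0311) and than RHBDD2-CKO by 0.31 (adjusted p = 0.0104). The 100 genes around UCK1 on chromosome 9 had medians of -0.11 to -0.05. UCK1 and TYMS were the only genes of the 40 that were lower in all 4 comparisons, as 3.26% of all genes were.

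The 250 bases before the RefSeq start of SHMT1 and UCK1 (GRCh38.p14) are shown because these are the genes called in all 4 clones under every setting, in opposite directions. They lie at chr17:18363551-18363800 and chr9:131531264-131531513, both on the - strand, and are written 5′ to 3′ toward the start. Capitals mark 3 motifs searched on both strands, the CCAAT box (CCAAT), the GC box (GGGCGG) and an E2F-type site (TTTNGCGC). Of 27305 genes with RefSeq promoters of this length, 37% hold CCAAT, 46.2% GGGCGG and 1.84% TTTNGCGC at 1 start or more, and of the 39 members among them 15, 28 and 1 do.
SHMT1 promoter: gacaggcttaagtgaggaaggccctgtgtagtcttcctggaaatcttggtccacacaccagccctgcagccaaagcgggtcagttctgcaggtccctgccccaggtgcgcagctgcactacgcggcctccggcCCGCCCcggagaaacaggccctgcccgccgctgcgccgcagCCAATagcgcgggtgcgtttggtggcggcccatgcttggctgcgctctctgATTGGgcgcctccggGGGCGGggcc
UCK1 promoter: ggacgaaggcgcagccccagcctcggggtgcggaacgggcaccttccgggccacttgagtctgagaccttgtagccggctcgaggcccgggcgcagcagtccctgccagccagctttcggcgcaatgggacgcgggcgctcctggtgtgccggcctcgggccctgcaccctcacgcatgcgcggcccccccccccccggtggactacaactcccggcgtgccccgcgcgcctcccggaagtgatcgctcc

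The SHMT1 window held 2 CCAAT and 2 GGGCGG matches, and the UCK1 window held none of the 3 motifs. The 1 gene with TTTNGCGC was DUT, the dUTPase.

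Of the other nucleoside kinases, DCK, UCK2, DGUOK and TK2 were each called in a single clone, and TK1 in none. UCK2, the second uridine-cytidine kinase, was lower in MLPH-CKO (18.4 ± 1.36 against 23.3 ± 0.595 FPKM, SD, n = 3, log2 fold change -0.34, adjusted p = 0.00249). DGUOK, the mitochondrial kinase of purine deoxynucleosides, was lower in RHBDD2-CKO (log2 fold change -0.34, adjusted p = 0.0441), and TK2, the mitochondrial thymidine kinase, was higher in MAGI2-CKO (0.31, adjusted p = 0.0434). Both calls were weak. That of DGUOK held in 6 of 10 other settings and in 3 of 15 with a library left out, where any of the 3 Non-target libraries removed it (adjusted p up to 0.170). That of TK2 held in 5 of 10 and in 6 of 15, and was lost without Non-target replicate 1 or 3 or MAGI2-CKO replicate 2 or 3 (up to 0.156). TK1, the thymidine kinase of S phase, had log2 fold changes of 0.28, 0.18, 0.27 and -0.15 and was not called (adjusted p = 0.0840 to 0.320). TK1 was called with replicates 2 and 3 alone, higher in the first 3 clones (0.28, 0.19 and 0.25, adjusted p = 0.00982, 0.0378 and 0.0131) and lower in RHBDD2-CKO (-0.19, adjusted p = 0.0375).

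CMPK1, the UMP-CMP kinase that adds the second phosphate to cytarabine, was lower in 3 clones by a small margin. CMPK1 was at 24.8, 23.2 and 24.6 FPKM in Non-target, at 21.2, 21.3 and 20.4 in C9orf89-CKO, at 22.2, 20.6 and 19.0 in MAGI2-CKO, at 21.6, 20.5 and 20.4 in MLPH-CKO and at 27.8, 26.0 and 27.0 in RHBDD2-CKO. All 9 libraries of the first 3 clones lay below Non-target, and those of RHBDD2-CKO lay above it without being called (log2 fold change 0.15, adjusted p = 0.0622). Those of the others were -0.21, -0.24 and -0.22 (SE 0.06 each), with adjusted p-values of 0.0211, 0.00741 and 0.0145. The C9orf89-CKO call was lost with quantile normalization or voom weights (adjusted p up to 0.134) and without Non-target replicate 1 or 3 or C9orf89-CKO replicate 3 (up to 0.0742). The MLPH-CKO call was lost with quantile normalization (0.0745) and without Non-target replicate 3 or MLPH-CKO replicate 3 (up to 0.0533). In RHBDD2-CKO CMPK1 was called higher with quantile normalization, the replicate block or voom weights (adjusted p down to 0.0138 in limma). It was also called there without MAGI2-CKO replicate 1 or 3. RHBDD2-CKO was higher than each other clone by 0.36 to 0.39 (adjusted p = 0.000178 to 0.000519). The 3 remaining tested nucleotide kinases, DTYMK for thymidylate and the nucleoside diphosphate kinases NME1 and NME2, were called in no clone. With the replicate block DTYMK was called lower in C9orf89-CKO (adjusted p = 0.0156 in limma) and NME2 in RHBDD2-CKO (0.0389). DTYMK was also called there without Non-target replicate 1, C9orf89-CKO replicate 3 or MLPH-CKO replicate 3. With replicates 2 and 3 alone NME1 was called lower in RHBDD2-CKO (0.0119). NME1 and NME2 share exons with the readthrough gene NME1-NME2 and are close paralogues, so their split of reads is uncertain.

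ADA, adenosine deaminase, was lower in 3 clones. ADA was at 6.97, 10.6 and 9.45 FPKM in Non-target, at 6.31, 7.26 and 6.46 in C9orf89-CKO, at 9.39, 10.3 and 10.6 in MAGI2-CKO, at 6.49, 7.15 and 6.64 in MLPH-CKO and at 5.58, 6.29 and 5.99 in RHBDD2-CKO. The libraries of RHBDD2-CKO lay below Non-target, while 1 library each of C9orf89-CKO and MLPH-CKO exceeded Non-target replicate 1. ADA had log2 fold changes of -0.41 (adjusted p = 0.0273) in C9orf89-CKO, -0.39 (adjusted p = 0.0300) in MLPH-CKO and, largest in size, -0.57 (adjusted p = 0.00334) in RHBDD2-CKO (SE 0.12 each), and of 0.18 in MAGI2-CKO (adjusted p = 0.275). The calls in C9orf89-CKO and MLPH-CKO were lost without Non-target replicate 2 or 3 or without replicate 1 or 3 of the clone (adjusted p up to 0.119 and 0.127). Both were lost with the contrasted groups alone (0.108 and 0.110), and that in MLPH-CKO without the filter on low values (0.0531). MAGI2-CKO was higher than each other clone by 0.57 to 0.75 (adjusted p = 0.000309 to 0.00491). PNP, the purine nucleoside phosphorylase that acts after ADA, was higher in RHBDD2-CKO (log2 fold change 0.19, adjusted p = 0.0428) and had values of 0.00 to 0.05 elsewhere. That call held in 6 of 10 other settings and in 6 of 15 with a library left out, and was lost without Non-target replicate 1 or 3 or any library of RHBDD2-CKO (adjusted p up to 0.142).

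Of the nucleotidases, NT5C2, the cytosolic one for purine monophosphates, was higher in 3 clones. NT5C2 was at 3.40, 3.48 and 3.88 FPKM in Non-target, at 5.29, 4.94 and 5.48 in C9orf89-CKO, at 4.21, 4.03 and 4.12 in MAGI2-CKO, at 4.98, 5.22 and 5.71 in MLPH-CKO and at 5.25, 4.26 and 4.57 in RHBDD2-CKO. All 12 clone libraries lay above Non-target. NT5C2 rose by 0.54, 0.55 and 0.38 on the log2 scale in C9orf89-CKO, MLPH-CKO and RHBDD2-CKO (SE 0.09 each, adjusted p = 0.000562, 0.000364 and 0.00453), and its log2 fold change was 0.20 in MAGI2-CKO (adjusted p = 0.0900). Of its exon bases 36.7% are shared with CNNM2 on the opposite strand, and the neighbours on chromosome 10 had medians of 0.30, 0.36, 0.40 and 0.00 in the 4 clones.

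NT5C3A, the pyrimidine nucleotidase, was lower in MAGI2-CKO. NT5C3A was at 7.09, 7.58 and 6.51 FPKM in Non-target and at 4.30, 3.76 and 3.99 in MAGI2-CKO, and the other clones had means of 7.04 to 8.57. The MAGI2-CKO libraries were the 3 lowest of all. Those of RHBDD2-CKO (8.71, 8.13 and 8.86) lay above Non-target, with a log2 fold change of 0.28 (adjusted p = 0.0527) that was called in 6 of 10 other settings. In MAGI2-CKO the log2 fold change was -0.80 (SE 0.10, adjusted p = 6.04e-05), and its neighbours on chromosome 7 had a median of -0.63. NT5C, a cytosolic deoxynucleotidase with 60.7% of its exon bases shared with other genes, was higher in MAGI2-CKO (0.36, adjusted p = 0.00606) and lower in RHBDD2-CKO (-0.46, adjusted p = 0.00148).

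Of the other hydrolases, DUT was higher in MAGI2-CKO and MLPH-CKO (39.6 ± 3.75 and 37.2 ± 3.90 FPKM against 28.7 ± 1.04, SD, n = 3). Its log2 fold changes were 0.46 and 0.37 (adjusted p = 0.00636 and 0.0260). The MLPH-CKO call was lost with replicates 2 and 3 alone (0.0693) and without replicate 1 or 3 of Non-target or of MLPH-CKO (up to 0.0895). DUT in C9orf89-CKO was at 22.0, 21.1 and 26.6 FPKM, below each library of Non-target (27.6 to 29.6), with a log2 fold change of -0.31 (adjusted p = 0.0573) that was called with the replicate block (adjusted p = 0.0343) and with any of 4 libraries left out. In MAGI2-CKO and MLPH-CKO the neighbours of DUT on chromosome 15 had medians of 0.53 and 0.59. DCTPP1, the dCTP pyrophosphatase, was lower in MAGI2-CKO and RHBDD2-CKO (83.4 ± 4.51 and 78.4 ± 7.35 against 112 ± 10.1 FPKM, SD, n = 3), with log2 fold changes of -0.42 and -0.51 (adjusted p = 0.00172 and 0.000526). In C9orf89-CKO its libraries also lay below Non-target (-0.24, adjusted p = 0.0513). That value was called with a mean of at least 1 FPKM, the replicate block and replicates 2 and 3 alone. Leaving out Non-target replicate 1, MLPH-CKO replicate 1 or RHBDD2-CKO replicate 1 or 3 had the same effect. In MLPH-CKO (-0.21, adjusted p = 0.0831) DCTPP1 was called with replicates 2 and 3 alone and without Non-target replicate 1. ZNF771 on the opposite strand shares 42.1% of the exon bases of DCTPP1.

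Among the remaining transporters, the lysosomal and mitochondrial SLC29A3 was higher in MAGI2-CKO (1.88, 2.28 and 2.19 against 1.31, 1.70 and 1.51 FPKM, log2 fold change 0.47, adjusted p = 0.00586) and lower in RHBDD2-CKO (1.10, 1.04 and 1.06 FPKM, log2 fold change -0.45, adjusted p = 0.00855). The RHBDD2-CKO call of SLC29A3 was lost with the contrasted groups alone (adjusted p = 0.0513). SLC29A2 was not called in any clone, with log2 fold changes of -0.29 to 0.20. The exporter gene ABCC4, whose pump carries nucleoside monophosphates, was lower in MAGI2-CKO and RHBDD2-CKO. It was at 6.31, 5.99 and 6.37 FPKM in Non-target, at 3.85, 4.12 and 3.57 in MAGI2-CKO and at 4.35, 4.53 and 4.84 in RHBDD2-CKO, without overlap. Its log2 fold changes were -0.68 (adjusted p = 7.70e-05) and -0.44 (adjusted p = 0.00251), with medians of 0.09 and -0.50 for its neighbours. The related exporter gene ABCC5 was higher in RHBDD2-CKO (0.42, adjusted p = 0.00136).

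Ribonucleotide reductase makes deoxynucleotides from ribonucleotides. Its large subunit gene RRM1 was lower in MAGI2-CKO (58.0 ± 1.61 against 68.7 ± 2.56 FPKM, SD, n = 3, log2 fold change -0.24, adjusted p = 0.0449). This call held in 6 of 10 other settings (adjusted p up to 0.210) and in 5 of 15 with a library left out, and was lost without any 1 of the Non-target or MAGI2-CKO libraries (up to 0.130). In MLPH-CKO RRM1 had a mean of 58.4 FPKM, with all libraries below Non-target (log2 fold change -0.23, adjusted p = 0.0597 in limma). It was called lower there with the replicate block, with replicates 2 and 3 alone and without C9orf89-CKO replicate 1 or 2. The S-phase small subunit gene RRM2 was higher in RHBDD2-CKO (31.1 ± 0.727 against 24.9 ± 0.749 FPKM, log2 fold change 0.32, adjusted p = 0.000792). The p53-inducible small subunit gene RRM2B had values of -0.15 to 0.21 and was not called.

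Of the 5 genes of pyrimidine synthesis, UMPS, the enzyme that yields UMP, was lower in MAGI2-CKO (-0.26, adjusted p = 0.0207) and RHBDD2-CKO (-0.53, adjusted p = 0.000204), where its neighbours on chromosome 3 had a median of -0.45. CTPS1, CTP synthase, was lower in C9orf89-CKO (-0.22, adjusted p = 0.0197) and MLPH-CKO (-0.43, adjusted p = 0.000229), and CTPS2 in MLPH-CKO (-0.27, adjusted p = 0.00511) and RHBDD2-CKO (-0.25, adjusted p = 0.00822). Leaving out Non-target replicate 3 or MAGI2-CKO replicate 2 or 3 removed the UMPS call in MAGI2-CKO (adjusted p up to 0.0796), and leaving out Non-target replicate 2 or C9orf89-CKO replicate 1 removed that of CTPS1 in C9orf89-CKO (up to 0.0736), as did the contrasted groups alone (0.0803). CAD and DHODH, which act before UMPS, were not called. CAD was at 31.8, 43.4 and 42.4 FPKM in RHBDD2-CKO and at 28.1, 30.7 and 31.0 in Non-target (adjusted p = 0.0624), with the library numbered 1 the lowest in both. Its log2 fold change there was 0.38. CAD was called higher in RHBDD2-CKO under 4 other settings, replicates 2 and 3 alone (0.48, adjusted p = 0.000441), the replicate block (0.38, adjusted p = 0.0159), quantile normalization (0.47, adjusted p = 0.0325) and voom weights (0.44, adjusted p = 0.0322), and in MLPH-CKO with replicates 2 and 3 alone (0.21, adjusted p = 0.0210).

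The clones differed from each other in most of these genes. In the F-test among the 4 clones, which leaves out the means of Non-target but takes its spread from all 15 libraries, 34 of the 40 passed (85.0%, against 52.2% of all genes, which were not matched for level). DGUOK, DTYMK, MTHFD2, NME1, PNP and TYMS did not. MAGI2-CKO and RHBDD2-CKO differed in 25 of the 40 (62.5%, against 41.6% of all genes), MLPH-CKO and RHBDD2-CKO in 19 (47.5%, against 37.0%), and C9orf89-CKO and MLPH-CKO in 8 (20%, against 14.2%). MAGI2-CKO differed from C9orf89-CKO in 12 (30%, against 22.5%) and from MLPH-CKO in 14 (35.0%, against 21.2%), and C9orf89-CKO from RHBDD2-CKO in 14 (35.0%, against 29.3%). With replicates 2 and 3 alone the F-test again gave 34 (against 61.1% of all genes), and the 6 pairs gave 12 to 28 of the 40 (30% to 70%, against 20.6% to 47.2%). Of the 40, 7 were called in the same direction in at least 3 comparisons (17.5%, against 17.7% of all genes) and 3 in opposite directions in different clones (7.50%, against 7.28%).

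Of the 59 calls of the 40 genes over the 4 comparisons, 21 (35.6%) had neighbours whose median log2 fold change was at least 0.2 in the same direction, a limit chosen after the values were seen. They were 2 of 8 in C9orf89-CKO (25.0%, against 26.0% of all genes called there), 8 of 18 in MAGI2-CKO (44.4%, against 37.8%), 7 of 15 in MLPH-CKO (46.7%, against 37.5%) and 4 of 18 in RHBDD2-CKO (22.2%, against 22.6%). They were SHMT1 in all 4 clones and NT5C2 in C9orf89-CKO. In MAGI2-CKO they included CDA, NT5C3A, NT5C, DUT, NT5M, MTHFD1 and SLC29A3. In MLPH-CKO they included DCK, CDA, DCTD, DUT, NT5C2 and NT5M, and in RHBDD2-CKO UMPS, ABCC4 and DCTPP1. No call of UCK1, TYMS, CMPK1, ADA or SHMT2 was among them. Over the 40 genes, the log2 fold change and the neighbour median had Pearson correlations of 0.63, 0.80, 0.80 and 0.43 by clone. Over all genes tested with 100 neighbours they were 0.24, 0.33, 0.29 and 0.25. The correlations were not tested. A chromosome gained or lost in a clone could not be told apart from other sources of a regional shift, since DNA was not analysed here.

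**Figure D4:**
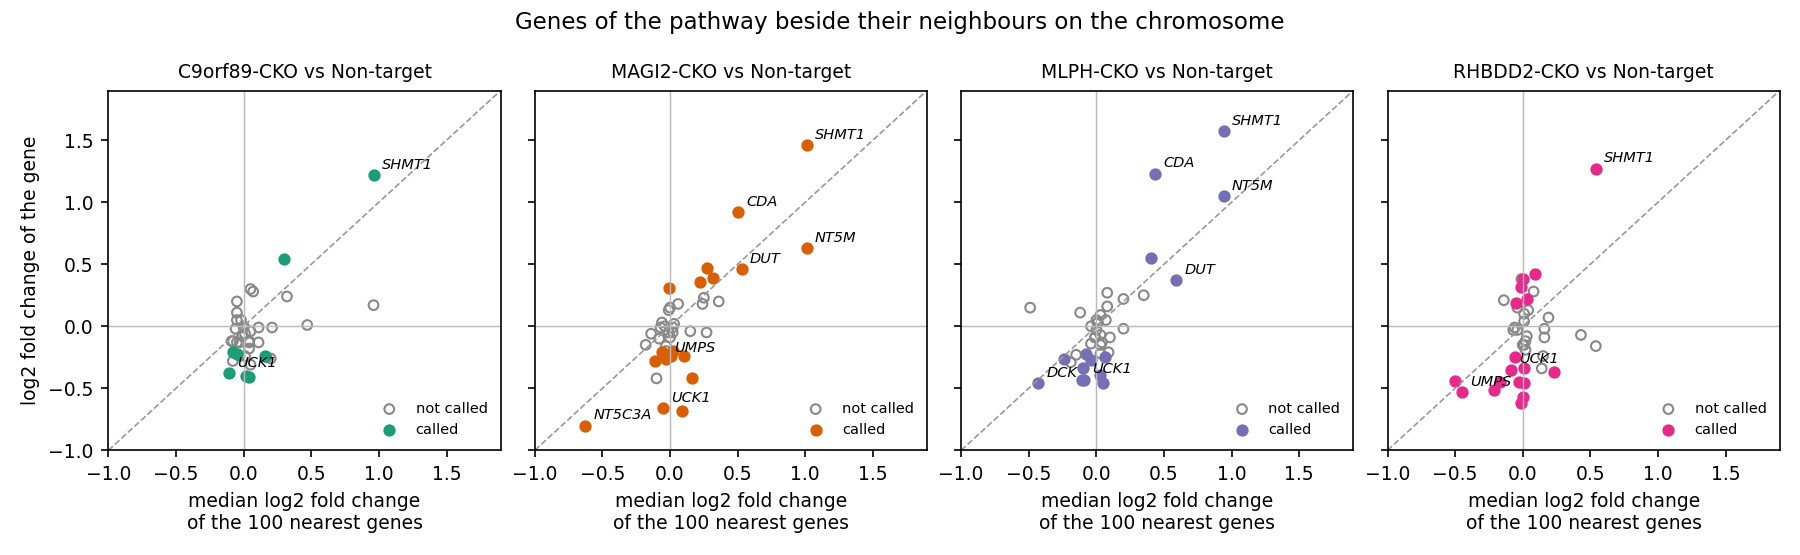
Log2 fold change of each of the 40 tested genes (y axis) against the median log2 fold change of the 100 tested genes nearest to it on the chromosome (x axis), for each clone against Non-target. Filled points were called, open points were not, and the dashed line marks equality; SHMT1 lies at 0.54 to 1.01 on the x axis in all 4 panels, and UCK1 lies near 0.

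Purine synthesis and salvage genes are given as a neighbouring pathway. Of 21 such genes, all tested, 1, 3, 1 and 2 were higher and 5, 7, 7 and 12 lower by clone, with median log2 fold changes of -0.10, -0.14, -0.06 and -0.20. The lower genes made up 23.8%, 33.3%, 33.3% and 57.1% of the list, beside 13.1%, 19.1%, 15.5% and 16.7% of all genes tested. With replicates 2 and 3 alone, 2, 4, 1 and 3 were higher and 7, 10, 9 and 12 lower, where 15.8%, 19.2%, 17.2% and 20.2% of all genes tested were higher and 17.7%, 22.2%, 21.0% and 22.9% lower. AK3, a mitochondrial adenylate kinase family member that uses GTP, was at 14.5, 13.3 and 14.4 FPKM in Non-target, at 5.62, 6.48 and 6.69 in C9orf89-CKO, at 6.65, 6.17 and 6.58 in MAGI2-CKO, at 8.21, 8.13 and 7.41 in MLPH-CKO and at 11.5, 9.94 and 10.9 in RHBDD2-CKO. It was lower in all 4 clones, with log2 fold changes of -1.16, -1.11, -0.82 and -0.38. HPRT1, which salvages hypoxanthine and guanine, was at 151, 154 and 145 FPKM in Non-target, at 95.4, 108 and 105 in C9orf89-CKO, at 106, 97.0 and 93.8 in MAGI2-CKO, at 116, 104 and 111 in MLPH-CKO and at 74.3, 64.6 and 70.1 in RHBDD2-CKO. HPRT1 fell throughout, with log2 fold changes of -0.55, -0.60, -0.44 and -1.11 (adjusted p = 0.000154, 3.83e-05, 0.000608 and 2.98e-07), and the libraries of the clones lay below Non-target throughout.

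Of 44 further nucleoside and folate genes, 31 were tested, and 3, 5, 4 and 4 were higher and 6, 7, 8 and 8 lower by clone, with medians of -0.13, -0.09, -0.05 and -0.11. The lower ones were 19.4%, 22.6%, 25.8% and 25.8% of those tested, beside the same shares of all genes as above, and with replicates 2 and 3 alone 5, 5, 6 and 6 were higher and 11, 10, 8 and 14 lower, beside 17.7%, 22.2%, 21.0% and 22.9% of all genes lower in that setting. ABCB1, the drug efflux pump P-glycoprotein, was at 2.79, 2.66 and 3.15 FPKM in Non-target, at 0.994, 0.915 and 0.821 in MAGI2-CKO, at 5.39, 5.32 and 5.25 in MLPH-CKO and at 4.04, 3.80 and 4.37 in RHBDD2-CKO. It fell in MAGI2-CKO (log2 fold change -1.55, adjusted p = 5.33e-07) and rose in MLPH-CKO (0.87, adjusted p = 9.97e-05) and RHBDD2-CKO (0.49, adjusted p = 0.00497). SLC29A4, a transporter of the same family as SLC29A1 that mainly carries monoamines, had means of 5.05 FPKM in Non-target and 2.26, 2.79 and 2.73 in MAGI2-CKO, MLPH-CKO and RHBDD2-CKO, where it was lower (log2 fold changes -1.12, -0.82 and -0.87).

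Many of the synthesis genes are most active in S phase, so 32 S phase and proliferation genes were set beside them. Of these, 4, 3, 3 and 4 were higher and 7, 8, 11 and 6 lower by clone, with medians of -0.12, -0.07, -0.08 and 0.00. The lower ones were 21.9%, 25%, 34.4% and 18.8% of the list, against 13.1%, 19.1%, 15.5% and 16.7% of all genes. With replicates 2 and 3 alone 4, 3, 4 and 6 were higher and 10, 11, 14 and 10 lower, against 17.7%, 22.2%, 21.0% and 22.9% of all genes lower. Their summed FPKM was 1828 in Non-target and 1738, 1707, 1760 and 1786 in the clones, with PCNA, the sliding clamp of DNA replication, the most abundant in every group (215 to 241). E2F2, an activator of S phase genes, was higher in all 4 clones (9.51 to 12.6 against 5.90 FPKM, log2 fold changes 0.88, 0.72, 0.68 and 1.08), and MCM2, a subunit of the replicative helicase, was lower in RHBDD2-CKO (41.0 against 76.1 FPKM, -0.89, adjusted p = 2.26e-06). Whether these genes bear on the differences in TYMS or other synthesis genes was not tested.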

How the data were processed

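RNA from 15 HEK293T libraries was sequenced by the study. The submitters' processing notes name HISAT2 2.0.5, featureCounts 1.5.0-p3 and DESeq2, without roles. The build and strand setting are not given in the sources used here. The authors deposited 1 FPKM value per gene and library, a unit the files do not name and that was worked out from the values: multiplied by the exon length in GENCODE v29 (GRCh38), 100% were whole multiples of the library's value for 1 fragment (tolerance 0.05 fragments). The fragments so recovered gave the depth.

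A gene was tested if 3 or more libraries reached 0.5 FPKM. The two-sided test was that of limma 3.58.1, run in R 4.3.3 on log2(FPKM + 0.1), which understates changes of low genes. All 15 libraries in 5 groups entered 1 fit with eBayes and a trend. Benjamini-Hochberg adjustment was over all 16175 genes, with a threshold of 0.05, at which a gene is said here to be called, higher or lower. Neighbours are the 100 nearest tested genes on a chromosome, without the 42. Promoters are those of RefSeq. Python 3.11.15 did the rest.

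The 42 genes, the other lists and the rules were chosen with earlier results of these data known. SLC29A1, DCK, CDA, DCTD and SAMHD1 are given in every library, as is each gene called in the same direction in at least 3 comparisons or called with an absolute log2 fold change of at least 1. From each other list, the 2 called genes with the largest absolute change are named. Alternatives were no filter, a mean of at least 1 FPKM, pseudocounts of 1 and 0.01, quantile normalization, no trend, a replicate block, the contrasted groups alone, replicates 2 and 3 alone, voom weights on fragments, and each library left out.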

Additional observations from a re-analysis of the deposited data

Results flagged for a closer look

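In all, 3 genes of the set were called in opposite directions in MAGI2-CKO and RHBDD2-CKO against the same Non-target libraries. They were all the genes of the 40 called higher in 1 comparison and lower in another (7.50%, against 7.28% of all genes tested). The difference between the clones follows from that choice of genes and is given as a description, with no test. MAGI2-CKO was lower than RHBDD2-CKO in SLC29A1 (log2 difference -0.43) and higher in SLC29A3 (0.92) and NT5C (0.82). The call of SLC29A1 in MAGI2-CKO was lost with quantile normalization (adjusted p = 0.0608 in limma), and that of SLC29A3 in RHBDD2-CKO with the contrasted groups alone (adjusted p = 0.0513).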

How the results depend on the processing

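No called log2 fold change of the 40 genes changed sign under the 10 other settings or with any library left out, and none that became called under a setting had a sign there other than its reported one. Of the 59 calls, 59 were kept with either pseudocount and with the replicate block, 58 with a mean of at least 1 FPKM, 56 without the trend and with voom weights on fragments, 55 with replicates 2 and 3 alone, 51 without the filter and with quantile normalization, and 50 with the contrasted groups alone. With a library left out, 47 to 58 were kept. Of the 101 values not called, 20 passed with replicates 2 and 3 alone and 17 with the replicate block, and at most 5 under any other setting. Libraries of the same number were not taken as pairs, since the labels give them no shared batch. Their deviations correlated at 0.00103 to 0.312 (median 0.0856, 30 pairs), against -0.21 to 0.127 for different numbers (median -0.0887, 60 pairs). With the replicate block the genes lower in C9orf89-CKO numbered 12 in place of 6 and those higher in RHBDD2-CKO 10 in place of 6, as with voom weights (10). The block also raised the share of all genes called, to 35.4% (from 26.0%) for C9orf89-CKO and 43.5% (from 34.1%) for RHBDD2-CKO. Over the left-out libraries, the genes lower in C9orf89-CKO numbered 3 to 8, those higher in MAGI2-CKO 5 to 8 and those lower in MLPH-CKO 6 to 11. The fewest of the first were without Non-target replicate 2 or 3, of the second without Non-target replicate 1 or MAGI2-CKO replicate 3, and of the third without MLPH-CKO replicate 3. The share of all genes called, in either direction, fell in these fits too. It was 20.3% and 20.0% (from 26.0%), 33.4% and 30.8% (from 36.1%) and 24.1% (from 30.1%) in the same order. With 1 clone per gene and 3 wells each, the effect of a knockout cannot be told apart from that of clonal origin. CDA, at 14 to 70 fragments per library, had an SE of 0.31, against 0.06 for SHMT1.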
